A study of Mus musculus with 6 samples.

Results

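The 10 genes described here build the photoreceptor outer segment and the matrix around it, and were measured in sorted mouse cones with and without Bmal1. They were taken by gene symbol and are 10 of the 9720 genes in the deposited table. Prph2 and Rom1 encode the tetraspanins of the disc rim. Abca4 encodes a retinoid lipid transporter of the rim. Prom1 and Cdhr1 encode prominin 1 and the photoreceptor cadherin, both found where new discs form. Rp1 and Rp1l1 encode doublecortin proteins of the axoneme, Fscn2 encodes an actin-bundling fascin, and Impg1 and Impg2 encode proteoglycans of the interphotoreceptor matrix. All 10 were present in every library and all 10 passed the filter of mean expression, set at 1 FPKM (fragments per kilobase of transcript, scaled to the fragments mapped). None passed the test between knockout and control.

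The outer segment is a modified cilium filled with stacked membrane discs that carry the visual pigment. Discs form at its base as outgrowths of the ciliary membrane, in which actin takes part, and their sharp rims are shaped by complexes of the Prph2 and Rom1 proteins. New discs are added daily while the pigment epithelium removes old ones, and this renewal follows a daily rhythm in many vertebrates. In cones many discs stay continuous with the plasma membrane. Mutations in several of these genes are known causes of inherited cone and rod degeneration, and rods use the same genes.

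The controls were HRGPcre;Bmal1f/+;Z/EG mice and the knockouts HRGPcre;Bmal1f/f;Z/EG mice, with 3 libraries each, on a C57BL/6 background described as mixed. Bmal1 (gene symbol Arntl) encodes the clock transcription factor BMAL1. Both groups carried the HRGPcre transgene, a Cre driven by a human red/green pigment promoter active in cones, and the Z/EG reporter, which turns on eGFP after Cre has acted. The controls thus carry 1 floxed and 1 normal Bmal1 allele together with Cre, while the series design calls them wild type. The adult animals were kept in 12 h light and 12 h dark. For their age the labels give day 60 to 80 after birth and, in brackets, a wider span of 2 to 6 months. Cells of the dissociated neural retina were sorted for eGFP, and 100 ng of RNA per library went into poly(A) sequencing. The labels give neither the hour of collection nor the number of animals behind a library, so p-values measure the spread between libraries, which may be in part technical.

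Arntl, the deleted gene, read 2.9998, 2.60 and 3.27 FPKM in the controls and 3.37, 2.28 and 3.48 FPKM in the knockouts, so its whole-gene level does not check the labels. The BMAL1 target Nr1d1 read 38.3, 47.1 and 56.3 FPKM against 2.87, 4.62 and 4.91 FPKM. Read depth is unknown. FPKM summed to between 84995 and 128773 per library, lowest in control 1 and highest in control 3, where 10.03% of it belonged to 1 gene model, Gm17364. All 10 cone markers were in the table, with sums of 4108 to 6923 FPKM in control and 5523 to 6666 FPKM in knockout. All 16 rod markers were there too, none of them at the lowest value of 0.1 FPKM throughout, with sums of 3019 to 3713 and 2540 to 3645 FPKM. The ratio of the rod to the cone sum was 0.735 in control 1 and 0.460 to 0.575 in the other 5 libraries. This ratio also moves with the cone marker Opn1sw, at 735, 1005 and 1202 FPKM in the controls and 1774, 1977 and 2091 FPKM in the knockouts. Of the 10 cone markers, 7 went the other way, with a negative difference between knockout and control. Sums were 91.8 to 120.2 FPKM for Müller glia markers (7 of 10 in the table), 49.4 to 72.4 FPKM for bipolar markers (8 of 10) and 5.01 to 11.2 FPKM for amacrine markers (2 of 7). Ganglion cell markers (3 of 7) summed to 23.9 FPKM in control 1 and 2.07 to 2.99 FPKM elsewhere. No pigment epithelium or horizontal cell marker was in the table, and 1 microglia, 1 vascular and 1 red blood cell marker each stayed below 6 FPKM. Because rods express the 10 genes as well, how much of their RNA came from rods was not tested. In bulk RNA, fewer cells of a type and less RNA per cell cannot be told apart.

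Since BMAL1 acts by binding DNA at E-boxes, the sequence upstream of the 10 genes was examined. RefSeq start sites were at hand for 8 of them, all except Rp1 and Rp1l1. Windows of 5 genes are printed here. Fscn2, Impg1 and Impg2 were the members with a known start that lay highest in knockout relative to control. Rom1 and Abca4 hold most of the matches marked in capitals. Of these 5 genes only Impg1 had FPKM ranges of the groups apart. Each reads 5′ to 3′ on the gene's strand (GRCm38.p6), runs up to 250 bases before the RefSeq start, and is shortened where an annotated exon overlaps it. Capitals mark TAATCC or TAAGCC on either strand, letters bound by bicoid-type homeodomain factors such as the photoreceptor regulator CRX, and the Impg1 and Impg2 stretches hold none.
Fscn2 (chr11:120361284-120361533, plus strand): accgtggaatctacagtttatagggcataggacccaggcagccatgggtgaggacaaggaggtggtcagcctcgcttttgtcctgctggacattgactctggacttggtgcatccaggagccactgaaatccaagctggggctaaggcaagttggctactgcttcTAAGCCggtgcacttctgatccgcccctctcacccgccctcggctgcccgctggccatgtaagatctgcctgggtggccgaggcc
Impg1 (chr9:80465482-80465688, minus strand): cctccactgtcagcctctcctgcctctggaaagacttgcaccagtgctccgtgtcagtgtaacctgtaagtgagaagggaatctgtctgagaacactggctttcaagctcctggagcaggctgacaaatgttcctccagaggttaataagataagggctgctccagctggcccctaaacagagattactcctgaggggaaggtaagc
Impg2 (chr16:56204063-56204312, plus strand): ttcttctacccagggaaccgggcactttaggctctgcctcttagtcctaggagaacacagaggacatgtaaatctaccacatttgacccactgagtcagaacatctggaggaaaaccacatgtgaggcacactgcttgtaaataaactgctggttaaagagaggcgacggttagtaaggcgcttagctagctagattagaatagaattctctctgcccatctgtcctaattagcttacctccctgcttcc
Rom1 (chr19:8929357-8929551, minus strand): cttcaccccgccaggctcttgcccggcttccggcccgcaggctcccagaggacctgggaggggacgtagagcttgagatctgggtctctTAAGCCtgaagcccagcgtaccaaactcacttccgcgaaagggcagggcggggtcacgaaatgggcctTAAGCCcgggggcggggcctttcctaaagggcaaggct
Abca4 (chr3:122044210-122044442, plus strand): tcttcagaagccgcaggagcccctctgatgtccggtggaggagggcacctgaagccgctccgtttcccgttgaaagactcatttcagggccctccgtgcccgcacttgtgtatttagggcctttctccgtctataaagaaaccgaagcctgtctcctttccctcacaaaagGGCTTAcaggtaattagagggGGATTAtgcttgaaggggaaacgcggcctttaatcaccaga

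Over the full 250 bases before the start, searched on both strands, CACGTG, the canonical E-box, was found for none of the 8 genes, against 6.86% of the 27025 genes with such a window. TAAGCC was found for 4 of 8 (Rom1, Abca4, Prom1 and Fscn2), against 9.35% of all genes. Prom1 had windows at 2 starts, and only the one further inside the gene (chr5:44094769-44095018) held the match. Rom1 held it at 2 places, 106 to 101 and 38 to 33 bases before the start. TAATCC was found for 1 of 8, Abca4, against 7.21% of genes. AGGTCA, the core of the response element of ROR and REV-ERB receptors, was found for 1 of 8, Impg1, against 15.8% of genes. That match lies 27 to 22 bases before the RefSeq start, inside an exon of the GENCODE annotation, and is outside the stretch printed above. The D-box TTATGTAA was found for none, against 0.977% of genes. TATAAA, the letters of the TATA box, was found for 2 of 8, Abca4 and Fscn2, against 14.3% of genes. The Abca4 match lies 119 to 114 bases before the start. That of Fscn2 lies 234 to 229 bases before it, on the strand opposite to the gene. A match is a run of letters and not a binding site, and these windows leave out distant enhancers.

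In control cones the 10 genes spanned a 39.8-fold range of FPKM, a scale per transcript length that allows levels of different genes to be compared. Cdhr1 was highest, at rank 54 of 9720 genes by control mean, followed by Prph2 at rank 61 and Rom1 at rank 96. Abca4 (rank 127), Impg1 (157), Prom1 (170) and Impg2 (237) came next. Rp1 (rank 817) and Rp1l1 (957) were lower, and Fscn2 was lowest at rank 4679. The control values of neighbours in this order overlapped except at 3 steps, between Prph2 and Rom1, between Impg2 and Rp1 and between Rp1l1 and Fscn2. In knockout cones the order of means was the same apart from Impg1, which stood above Abca4.

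**Figure D1:**
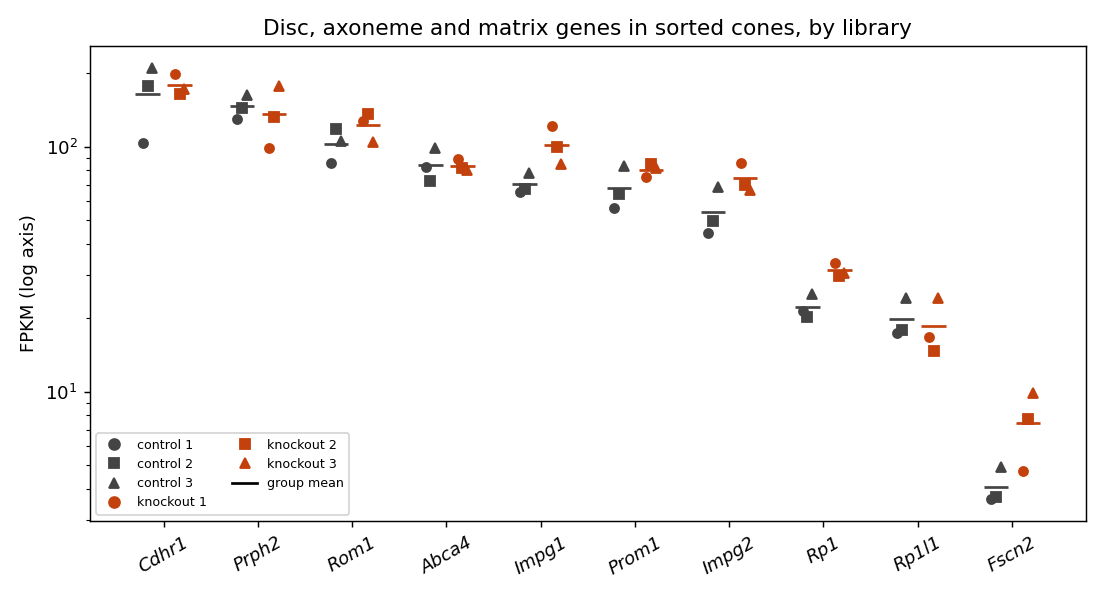
FPKM on a log axis for each of the 10 genes in the 3 control (grey) and 3 knockout (orange) libraries, ordered by control mean, with lines at group means. Points of the 2 groups are apart for Rp1 and Impg1 and overlap for the other 8 genes.

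Of the 10 genes, 7 had a positive and 3 a negative difference in log2(FPKM + 1), knockout minus control. Their median difference was 0.26, beside -0.02 over the 8627 genes tested, of which 47.4% were positive. Of the 16 rod markers 11 were positive, with a median of 0.11, and of the 10 cone markers 3, with a median of -0.14. The amacrine sum was lower in every knockout (5.01 to 8.15 FPKM) than in every control (8.98 to 11.2 FPKM). So was the ganglion sum (2.07 to 2.32 against 2.63 to 23.9 FPKM). These sums add few genes at low levels, and neither amacrine gene alone had its groups apart. Slc6a9 read 4.58 FPKM in control 1 and 6.53 FPKM in knockout 2. Pax6 read 6.65 FPKM in control 1 and 0.684 FPKM in control 2, against 0.961 to 1.62 FPKM in the knockouts. The ganglion markers Stmn2 and Nefl overlapped as well, and Stmn2 read 21.1 FPKM in control 1 and at most 0.668 FPKM elsewhere. Alas2, a red blood cell marker, was higher in every knockout (3.06 to 5.29 against 1.48 to 2.93 FPKM), as was the 1 vascular marker (1.23 to 1.30 against 0.593 to 0.812 FPKM). The part of these markers in the members' differences was not tested. None of the 10 genes reached an adjusted p of 0.05 in limma, where 0.104% of all tested genes did. An unadjusted p under 0.05 in limma was reached by 2 of the 10, Fscn2 and Rp1, both higher in knockout. That count was 0 without control 2 or without knockout 2, and 4 without control 3 or after scaling to a common sum or by median of ratios. Over all tested genes 5.49% reached it in either direction and 1.53% in that direction. The FPKM ranges of the 2 groups were apart for 2 of 10, Rp1 and Impg1, again higher in knockout. That was so for 9.39% of all tested genes in either direction and for 3.52% in that direction. The unadjusted 95% interval of the fold in FPKM + 1 was 0.599 to 1.38 for Prph2, 0.693 to 1.43 for Abca4 and 1.09 to 2.39 for Fscn2.

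**Figure D2:**
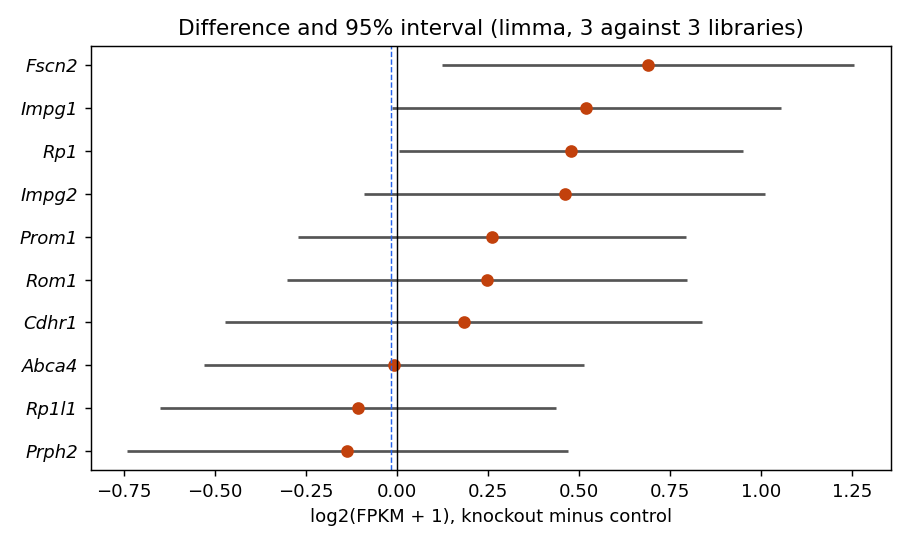
Difference in log2(FPKM + 1), knockout minus control, for each gene, with its 95% interval from limma over 3 against 3 libraries; the dashed line is the median of all tested genes (-0.02). Intervals exclude 0 for Fscn2 and Rp1 before adjustment, and no gene passed after it.

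Among the disc rim genes, Prph2 (gene ID ENSMUSG00000023978.5, chr17:46910459-46924933, plus strand, GRCm38) encodes peripherin 2, the tetraspanin that bends the rim. It read 130, 144 and 163 FPKM in the controls and 98.8, 132 and 176 FPKM in the knockouts. Knockout 1 held the lowest and knockout 3 the highest of the 6 values, so the knockouts spanned the controls. The means were 146 ± 16.6 and 136 ± 39.0 FPKM (SD, n = 3 each), with a log2 difference of -0.14 ± 0.28 (SE; adjusted p = 0.9996, limma). Rom1 (ENSMUSG00000071648.3, chr19:8927391-8929356, minus strand) encodes its non-glycosylated partner. It read 85.4, 118 and 106 FPKM in the controls and 127, 135 and 104 FPKM in the knockouts. Of 3 knockout values 2 lay above every control, and knockout 3 lay within the control range. The log2 difference was 0.25 ± 0.25 (adjusted p = 0.986, limma).

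Because the Prph2 and Rom1 proteins assemble with each other, the ratio of their FPKM was taken within each library, where library scaling cancels. Rom1 to Prph2 was 0.657, 0.815 and 0.647 in the controls and 1.28, 1.03 and 0.590 in the knockouts. The control ratios lay close together, and knockouts lay on both sides of them. The mean ratio was 0.707 ± 0.094 in control and 0.967 ± 0.351 in knockout, and the exact two-sided permutation test gave p = 0.4 (0.6 after Benjamini-Hochberg adjustment over 3 ratios). With 3 against 3 libraries this test cannot go below 0.1. The log2 difference of the ratio was 0.39, and it was 0.15 without knockout 1 and 0.71 without knockout 3.

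Abca4 (ENSMUSG00000028125.14, chr3:122044443-122180123, plus strand) encodes the rim transporter that clears retinaldehyde adducts from disc membranes. It read 82.3, 72.3 and 98.6 FPKM in the controls and 88.6, 81.5 and 80.0 FPKM in the knockouts. All 3 knockout values lay inside the control range. Its log2 difference of -0.01 ± 0.24 was the smallest of the 10, with a 95% interval from -0.53 to 0.51.

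Of the genes acting at the base of the outer segment, Prom1 (ENSMUSG00000029086.15, chr5:43993620-44102032, minus strand) encodes a cholesterol-binding membrane protein of nascent discs. It read 56.0, 64.3 and 83.0 FPKM in the controls and 74.8, 84.9 and 81.6 FPKM in the knockouts. The knockouts lay above controls 1 and 2 and around control 3. The log2 difference was 0.26 ± 0.25 (adjusted p = 0.984, limma). Its exons share 424 bp with the antisense gene model Gm16401 on the other strand. The library kit keeps strand, but whether the counting used it is unknown, so reads of the pair may be mixed. No other member shared exonic bases with another gene in GENCODE vM21.

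Cdhr1 (ENSMUSG00000021803.9, chr14:37077857-37098347, minus strand) encodes a cadherin that links the edge of new discs to the inner segment. It read 103, 176 and 210 FPKM in the controls and 199, 164 and 172 FPKM in the knockouts. Control 1 lay far below the other 5 libraries, which ranged from 164 to 210 FPKM. The log2 difference was 0.18 ± 0.30 with all libraries and -0.11 without control 1, the same library with the lowest FPKM sum. After median-of-ratios scaling control 1 still read 118 FPKM, against 165 to 203 FPKM in the other 5 libraries. Fscn2 (ENSMUSG00000025380.2, chr11:120361534-120368168, plus strand), the retinal fascin, read 3.64, 3.72 and 4.93 FPKM in the controls and 4.73, 7.72 and 9.90 FPKM in the knockouts. Knockouts 2 and 3 exceeded every control and knockout 1 lay inside the control range. The ratio of means was 1.82, the highest of the 10, and the log2 difference 0.69 ± 0.26 did not pass (adjusted p = 0.837, limma). Without knockout 3 it was 0.48 (adjusted p = 0.815, limma), and without knockout 1 it was 0.95 (adjusted p = 0.978, limma).

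Of the doublecortin genes, Rp1 (ENSMUSG00000025900.11, chr1:3999557-4409241, minus strand) encodes a microtubule-binding protein that runs along the axoneme and keeps discs aligned. It read 21.3, 20.2 and 25.0 FPKM in the controls and 33.4, 29.7 and 30.6 FPKM in the knockouts. Every knockout value lay above every control value, with group means of 22.2 ± 2.50 and 31.2 ± 1.92 FPKM, a ratio of 1.41. Its log2 difference of 0.48 ± 0.22 had a 95% interval of 0.0054 to 0.95 (adjusted p = 0.897, limma). Rp1l1 (ENSMUSG00000046049.6, chr14:63992506-64035025, plus strand) encodes the Rp1-like partner at the axoneme. It read 17.4, 17.9 and 24.0 FPKM in the controls and 16.7, 14.7 and 24.1 FPKM in the knockouts. The groups overlapped, with replicate 3 the highest library in both, and the log2 difference was -0.11 ± 0.25 (adjusted p = 0.9996, limma).

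Within libraries Rp1l1 to Rp1 was 0.816, 0.883 and 0.960 in the controls and 0.499, 0.494 and 0.789 in the knockouts. All 3 knockout ratios lay below all 3 control ratios, although knockout 3 came close to control 1. The mean was 0.886 ± 0.072 in control and 0.594 ± 0.169 in knockout, a log2 difference of -0.61, and the exact permutation p of 0.1 (0.3 after adjustment over the 3 ratios) is the smallest that 3 against 3 libraries can give. The ratio compares the genes with each other and does not show which of them differed. Its log2 difference stayed between -0.83 and -0.49 when each library was left out in turn.

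Of the matrix genes, Impg1 (ENSMUSG00000032343.15, chr9:80313330-80465481, minus strand) encodes the proteoglycan SPACR. It read 65.3, 67.2 and 77.7 FPKM in the controls and 121, 99.3 and 84.9 FPKM in the knockouts. Every knockout value lay above every control value, and the means were 70.1 ± 6.67 and 101.7 ± 18.1 FPKM. The log2 difference was 0.52 ± 0.25 (adjusted p = 0.897, limma). Impg2 (ENSMUSG00000035270.15, chr16:56204313-56273756, plus strand) encodes SPACRCAN, a proteoglycan that spans the membrane. It read 44.4, 49.8 and 68.2 FPKM in the controls and 85.9, 69.9 and 66.7 FPKM in the knockouts. Only control 3 and knockout 3 overlapped, and the log2 difference was 0.46 ± 0.25 (adjusted p = 0.909, limma). In both genes knockout 1 was the highest library.

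Impg1 to Impg2 was 1.47, 1.35 and 1.14 in the controls and 1.41, 1.42 and 1.27 in the knockouts. The ratios of the 2 groups overlapped, with means of 1.32 ± 0.169 and 1.37 ± 0.082 (exact permutation p = 0.7, also 0.7 after adjustment).

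**Figure D3:**
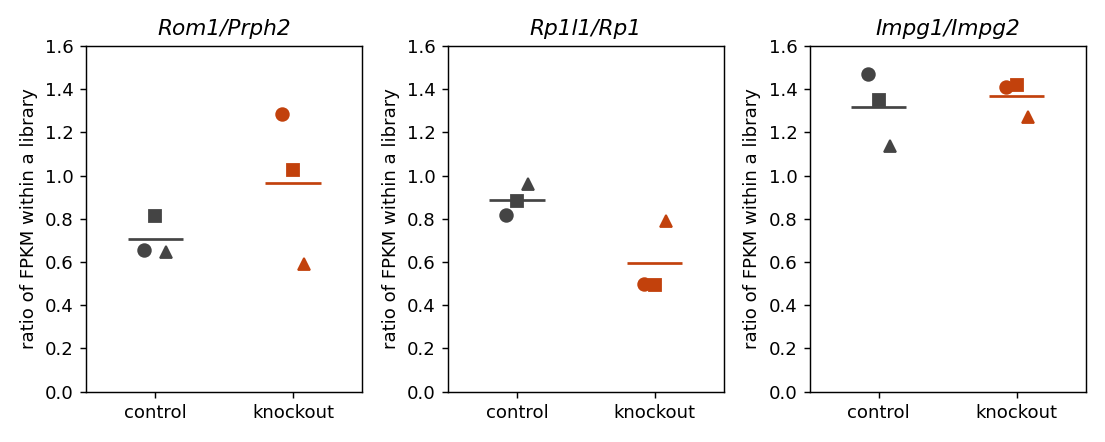
Ratio of FPKM within each library for Rom1/Prph2, Rp1l1/Rp1 and Impg1/Impg2, with circles, squares and triangles for replicates 1, 2 and 3 of control (grey) and knockout (orange) and lines at group means. Knockout ratios lie below all controls only for Rp1l1/Rp1, with means of 0.594 and 0.886.

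The controls differed from each other in the same direction for most members. Control 1 was the lowest control for 8 of 10 genes and control 3 the highest for 9 of 10. Median-of-ratios factors, which put the bulk of genes on a common level, were 0.872, 0.985 and 1.18 for controls 1 to 3 and 0.968 to 1.04 for the knockouts. After division by them, control 1 was the lowest for 2 of 10 genes. On that scale 5 of 10 genes (Prom1, Rp1, Fscn2, Impg1 and Impg2) had all knockout values above all control values and none had all below, where 6.42% of all tested genes had all above. Scaled Impg2 read 50.9, 50.6 and 57.9 FPKM in the controls and 87.9, 72.2 and 63.9 FPKM in the knockouts. Scaled Prom1 read 64.2, 65.2 and 70.4 against 76.6, 87.8 and 78.2 FPKM. Thus the deposited scale and the rescaled one differed in which groups overlapped, while no gene passed the adjusted threshold on either.

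Summed over the 10 genes, the level was 609, 733 and 860 FPKM in the controls and 849, 819 and 831 FPKM in the knockouts. The control values spread widely and enclosed the knockouts on the deposited scale. As a percentage of the FPKM sum of each library the 10 genes made up 0.716%, 0.687% and 0.668% in the controls and 0.832%, 0.801% and 0.777% in the knockouts. Gm17364 held 10.03% of the sum of control 3 and 0.503% to 2.88% of the others, which lowers the percentage of control 3. With libraries scaled to a common sum without Gm17364, the 10 genes summed to 729, 713 and 752 FPKM in the controls. The knockouts then read 868, 833 and 806 FPKM. After median-of-ratios scaling the sums were 698, 744 and 729 FPKM against 870, 846 and 796 FPKM. On each of these relative scales every knockout lay above every control. The most abundant genes carry most of such a sum, and the p of its planned permutation test is not given, because the 10 genes were picked with earlier results known.

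**Figure D4:**
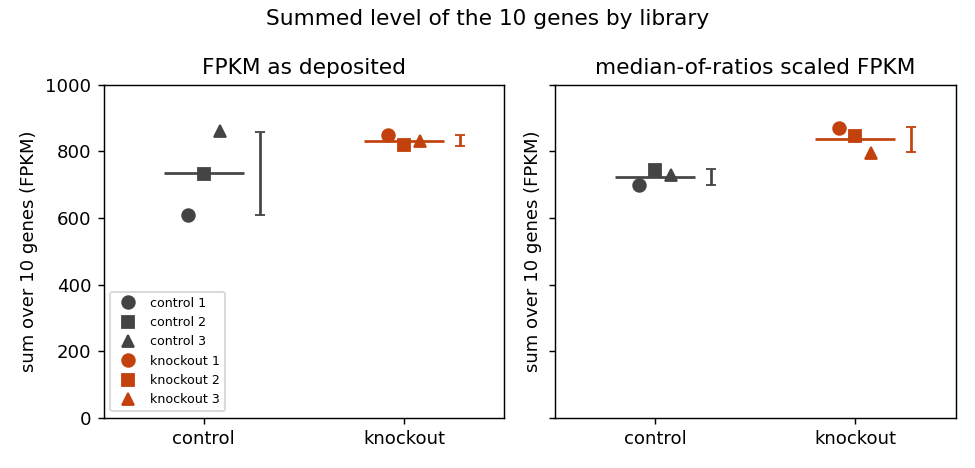
Sum of FPKM over the 10 genes per library as deposited (left) and after median-of-ratios scaling (right), with lines at group means and bars of 1 SD beside them (n = 3). The groups overlap on the left, with controls from 609 to 860 FPKM, and are apart on the right, with controls up to 744 and knockouts from 796 FPKM.

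With the mean log2 level of the rod markers as a covariate, the difference was 0.59 for Fscn2, 0.43 for Rp1, 0.49 for Impg1 and 0.35 for Impg2. It was 0.0028 for Cdhr1, 0.16 for Prom1, 0.23 for Rom1, -0.07 for Abca4, -0.23 for Prph2 and -0.24 for Rp1l1. The rod score itself ranged from 5.65 to 6.03 in control and from 5.82 to 5.97 in knockout. It was lowest in control 1, whose rod to cone ratio was the highest, so the covariate does not stand for the share of rods. Control 1 also held the high Stmn2 value. Without this library, Fscn2, Rp1, Impg1 and Impg2 gave 0.63, 0.45, 0.47 and 0.33. Rom1 and Prom1 gave 0.12 and 0.14. None passed in either fit.

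**Figure D5:**
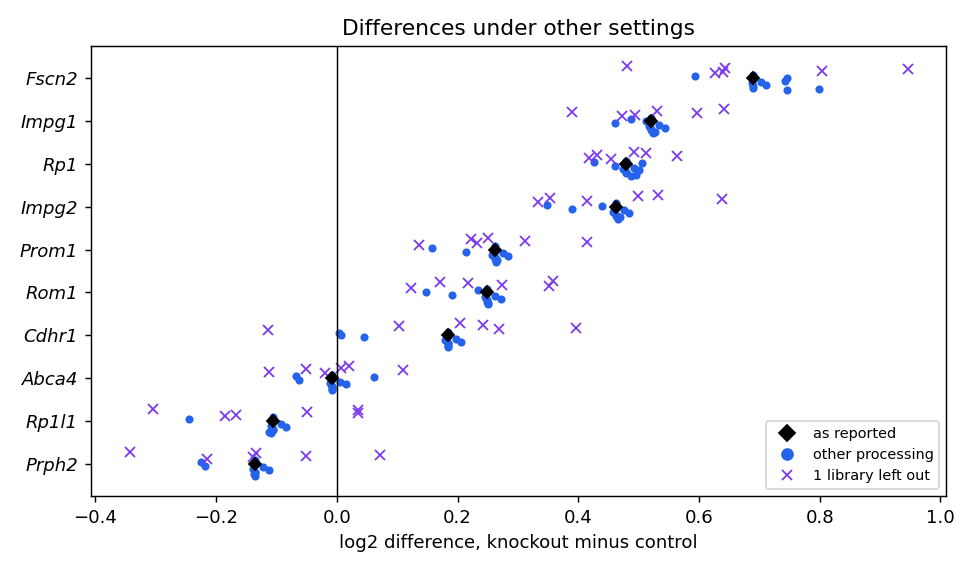
Log2 difference of each gene, knockout minus control, as reported (black diamonds), under other processing (blue circles) and with 1 library left out (violet crosses). Fscn2, Impg1, Rp1, Impg2, Prom1 and Rom1 stay above 0 throughout, and Cdhr1, Abca4, Rp1l1 and Prph2 have points on both sides.

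Genes whose library-to-library pattern was most like that of a member were taken as those with the smallest SD of the log2(FPKM + 1) difference to it over 6 libraries, among 4006 genes whose mean reached 5 FPKM. For Rp1 these were Crb1, a polarity gene of the photoreceptor inner segment (SD 0.066), Zfp536, a zinc finger gene (SD 0.068), and Memo1 (SD 0.082). Impg1 stood at place 31 (SD 0.13) and Impg2 at place 51 (SD 0.15) of that order, and Rp1l1 at place 2243 (SD 0.40). For Fscn2 the nearest were Lynx1, which encodes a modulator of nicotinic receptors (SD 0.15), Abi3 (SD 0.16) and Wapl, a cohesin release gene (SD 0.19). Lynx1 read 36.4, 43.9 and 47.0 FPKM in the controls and 42.3, 59.7 and 81.7 FPKM in the knockouts. For Cdhr1, the most abundant member, they were Degs1, a ceramide synthesis gene (SD 0.044), Ncbp1, a cap-binding gene (SD 0.053), and Ik (SD 0.066). Each of these 3 was lowest in control 1, as Cdhr1 was, which follows from how they were chosen. These orders describe 6 libraries and carry no test.

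Other genes of the outer segment were counted from lists of known roles, and none passed in limma. Of 27 tested genes of the axoneme and connecting cilium, 17 were positive, with a median log2 difference of 0.12 and 2 unadjusted p under 0.05. These were Rpgr, a regulator of ciliary traffic, with a log2 difference of 0.55 (adjusted p = 0.897, limma), and Iqcb1, a ciliary scaffold gene. Iqcb1 read 3.38, 4.03 and 5.32 FPKM in the controls and 6.52, 6.50 and 6.07 FPKM in the knockouts, so its groups were apart. Rpgrip1, which anchors Rpgr, was the most abundant of the list at 167 ± 36.6 and 181 ± 16.0 FPKM.

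Of 18 tested genes of disc formation and actin, 10 were positive, with a median of 0.02 and 1 unadjusted p under 0.05. That gene was Wasf2, an activator of actin branching. Wasf2 read 12.2, 3.27 and 3.98 FPKM in the controls and 1.53, 1.08 and 3.29 FPKM in the knockouts, with control 1 far above the rest (adjusted p = 0.653, limma). Wasf3, its photoreceptor-enriched relative and the most abundant of the list, measured 56.4 ± 20.6 and 65.3 ± 13.6 FPKM, and Actb, which encodes beta-actin, 48.6 ± 4.25 and 37.7 ± 19.5 FPKM.

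Among 9 tested genes of disc lipids and retinoids, 7 were positive, with a median of 0.24 and no unadjusted p under 0.05. Rdh12, which reduces retinaldehyde, measured 55.9 ± 15.6 and 82.0 ± 16.5 FPKM, which is 0.56 ± 0.28 on the log2 scale (adjusted p = 0.897, limma). Agpat3, which places docosahexaenoic acid into phospholipids, measured 43.1 ± 5.99 and 56.0 ± 12.0 FPKM.

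In the matrix and adhesion list 6 of 15 genes were in the table, and 4 of the 5 tested were positive, with a median of 0.11 and no unadjusted p under 0.05. Rbp3, the retinoid carrier of the interphotoreceptor matrix, measured 480 ± 61.5 and 510 ± 27.9 FPKM, above each of the 10 genes. Dag1, the dystroglycan gene, measured 4.31 ± 0.134 and 3.79 ± 0.768 FPKM.

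The next list held genes of the calyceal processes and periciliary membrane, and also the polarity gene Crb1. Of 6 tested, 4 were positive, with a median of 0.04 and no unadjusted p under 0.05. Crb1 read 20.4, 21.1 and 27.2 FPKM in the controls and 32.7, 29.8 and 30.03 FPKM in the knockouts, which put its groups apart as for Rp1 (log2 difference 0.43 ± 0.22, adjusted p = 0.909, limma). Whrn, the whirlin scaffold gene, measured 20.2 ± 4.28 and 17.1 ± 1.97 FPKM.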

How the data were processed

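The authors deposited FPKM values of 9720 genes, with 1 column for each of 6 libraries of eGFP-sorted cones. Per the submitters' processing notes, the tools were Cufflinks 2.2.1, TopHat2 2.1.0, DESeq2 and HTSeq and the build was mm10, without the role of each. Their annotation, strand setting and filters: not given in the sources used here. No value is under 0.1 FPKM, and depth is unknown. The genotype labels gave the groups, and the titles the replicate numbers.

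Differences in log2(FPKM + 1) were fitted in limma 3.58.1 (R 4.3.3) for the 8627 genes averaging 1 FPKM or more, with a variance trend, two-sided, and Benjamini-Hochberg adjustment at 0.05. This scale understates the change of genes near 1 FPKM. The p-values outside the ratios are from this fit, or from its named alternatives. The fitting code was tested on simulated data. Ratios within libraries used an exact permutation test. Tables and figures used matplotlib 3.10.9, numpy 2.4.6 and pandas 2.3.3 under Python 3.11.15. Positions are from GENCODE vM21 (GRCm38, the assembly of mm10), which matched 9702 gene IDs, and upstream sequences from RefSeq (GRCm38.p6).

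The 10 genes and all lists were chosen with earlier results of these data known. Named beside the members were, per list of outer segment genes, the most abundant gene and the 2 of smallest p, and, for the most abundant member and the 2 of smallest p, the 3 genes of most similar pattern. Of these, 2 genes are not reported here. Alternatives covered the pseudocount, the filter, scaling, variance model, array weights, leaving out each library, a replicate block and a rod covariate. Scaling to a common sum without Gm17364 was added after the data were seen.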

Additional observations from a re-analysis of the deposited data

How the results depend on the processing

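None of the 10 genes was called under any of the 18 alternatives, and the smallest adjusted p of a member was 0.223, for Fscn2 with array weights. Rom1, Prom1, Rp1, Fscn2, Impg1 and Impg2 kept a positive difference in all 18. The number of positive members ranged from 6 (without control 1) to 9 (without control 3 or without knockout 2). Over all genes 9 were called, 4 higher and 5 lower, and with array weights 23 were called, 11 higher and 12 lower, at library weights from 0.306 for control 1 to 1.88 for control 2. With 1 library left out the count ranged from 6 (1 higher and 5 lower, without control 2 or without knockout 2) to 13 (5 higher and 8 lower, without control 1). Scaling to a common FPKM sum, with or without Gm17364, gave 6 higher and 5 lower. The difference of Abca4 changed sign to 0.015 with a common sum, 0.0056 with median-of-ratios scaling and 0.062 with array weights. With each library left out in turn it ranged from -0.11 to 0.11, that of Prph2 from -0.34 to 0.072, that of Cdhr1 from -0.11 to 0.40 and that of Rp1l1 from -0.30 to 0.036. The log2 difference of the Impg1 to Impg2 ratio ranged from -0.045 to 0.14. The cause of these changes was not tested. With the replicate number as a block 6 genes were called and none of the 10. Libraries with the same number did not deviate together (correlations of -0.12, -0.085 and -0.034 across genes, and no control correlated best with its own number), so the numbers were not taken as pairs. With 3 libraries a group and unknown depth, precision rests on the spread between libraries alone.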

Other observations

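Prph2 and Rom1 belong to the tetraspanins, a family of membrane proteins with 4 membrane-spanning segments, and 12 others were tested. Their differences were positive in 3 and negative in 9, the median was -0.18, and in limma none passed while 2 had an unadjusted p under 0.05. Tspan7, the most abundant, read 51.4, 73.6 and 77.8 FPKM in the controls and 87.3, 66.4 and 75.5 FPKM in the knockouts, below Prph2 in each library. Tspan9 read 5.48, 5.16 and 7.11 FPKM in the controls and 5.12, 2.24 and 3.35 FPKM in the knockouts (log2 difference -0.64 ± 0.26, adjusted p = 0.895, limma). All 3 knockouts lay below all 3 controls, the opposite side from Impg1 and Rp1. Cd63, a tetraspanin of late endosomes, also had groups apart, at 2.37, 1.82 and 1.81 FPKM against 1.31, 0.783 and 1.36 FPKM (adjusted p = 0.897, limma).

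Relatives of Abca4, Prom1, Fscn2, Cdhr1 and the doublecortin genes were scarce. Of 24 listed, 8 were in the table and 6 were tested, with 2 positive and 4 negative differences, and none passed in limma or had an unadjusted p under 0.05. Abca2, a lipid transporter gene, was the most abundant at 8.48 ± 2.97 and 8.30 ± 3.38 FPKM, against 84.4 ± 13.3 and 83.4 ± 4.57 FPKM for Abca4. For Dclk1, which encodes a doublecortin kinase, the means were 3.68 ± 0.935 and 5.04 ± 0.994 FPKM (adjusted p = 0.929, limma), and for Abca1, a cholesterol exporter gene, 1.67 ± 0.648 and 1.21 ± 0.198 FPKM (adjusted p = 0.984, limma).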
